A study of Mus musculus with 4 samples.

Results

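The genes of the 26S proteasome and of its activators and assembly factors were followed in RNA-seq profiles of sorted mouse forebrain cells. Members were all genes of the deposited table whose symbol is Psm, a letter from a to g and a number, except 3 symbols that the rule left out. This gave 45 genes of 54348 rows, and no symbol was repeated. Of the 45, 17 belong to the 20S core, 17 to the 19S regulatory particle and 11 to activators, an inhibitor and assembly chaperones.

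There were 4 libraries, 2 for each genotype. Every mouse carried PdgfraCreER, a recombinase that tamoxifen activates and that the Pdgfra promoter drives, and AI14, a reporter that turns on the red protein tdTomato after recombination. The control libraries had no further allele (PdgfraCreER;AI14), and the fusion libraries also had MN1:BEND2 (PdgfraCreER;MN1:BEND2;AI14), a gene fusion found in the brain tumour astroblastoma. Tamoxifen was given on postnatal days 0 and 1. On day 4, living forebrain cells with tdTomato were sorted. The comparison asks how cells of the Pdgfra lineage differ when they carry the fusion gene.

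The proteasome is the barrel-shaped protease that degrades proteins tagged with ubiquitin. Its 20S core is a stack of rings of alpha subunits, which gate the entrance, and of beta subunits, some of which carry the proteolytic sites. The 19S regulatory particle caps the core: a base with a ring of ATPases unfolds the substrate, and a lid removes the ubiquitin chain. NFE2L1, a transcription factor that is itself cleared by the proteasome, raises the subunit genes together when proteasome activity is low.

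Promoters in RefSeq (GRCm38.p6) were matched for 37 of the 45 genes. NFE2L1 and its relative NFE2L2 bind antioxidant response elements, and the letters TGACNNNGC were searched on both strands of the 250 bases before each start. They were found in 5 of 37 member promoters (13.5%) and in 2743 of 27025 promoters in the table (10.1%). By particle, 2 of 13 core promoters and 2 of 14 promoters of the regulatory particle held them. The 5 matches are shown because they fall in both particles and beside them: Psmb5 and Psmb6 encode subunits with proteolytic sites, Psmc6 an ATPase, Psmd12 a lid subunit and Psmd9 an assembly chaperone. Each is printed 5′ to 3′ on the strand of its gene, with the match in capitals. The Psmc6 and Psmd12 matches are on the other strand, so their capitals are the reverse complement of the letters searched.
Psmb5 (chr14:54618019-54618057, minus strand): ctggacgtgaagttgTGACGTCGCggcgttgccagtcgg
Psmb6 (chr11:70525333-70525356, plus strand): gcggactaaagagagTGACGGAGC
Psmc6 (chr14:45329582-45329620, plus strand): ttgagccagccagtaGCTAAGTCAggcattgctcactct
Psmd12 (chr11:107479278-107479304, plus strand): tctGCTGTGTCAcatttgcccccctca
Psmd9 (chr5:123228144-123228182, plus strand): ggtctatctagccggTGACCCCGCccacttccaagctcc
A match of letters is a description of the sequence and not a binding site.

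Values were TPM, a measure that is divided by transcript length and has a fixed total per library, which leaves read depth unknown. Below, a gene's levels are given for control replicates 1 and 2 and then for fusion replicates 1 and 2. Bend2 was listed at 0 in each control and at 3.82 and 8.72 TPM with the fusion. The 8 markers of oligodendrocyte precursors, a main Pdgfra lineage of the forebrain, were above 0 in all 4 libraries and summed to 1261 and 1616 TPM in controls against 453 and 578 TPM, with 5 of 8 lower. The groups also stood apart in other ways. The share of mitochondrially encoded genes in TPM was 10.1% and 7.30% in controls against 48.7% and 26.2%, and genes at 1 TPM or more numbered 12772 and 13219 against 9050 and 10017. The 14 microglia and macrophage markers summed to 142 and 61.4 TPM in controls against 499 and 734 TPM (4 higher and 2 lower of 12 tested), with P2ry12 at 0 in both fusion libraries. The 7 fibroblast markers summed to 47.8 and 125 TPM against 485 and 966 TPM (3 higher of 7 tested). The 5 astrocyte markers summed to 120.1 and 158 TPM against 20.2 and 48.0 TPM (2 lower of 4 tested), and the 5 neuron markers to 175 and 163 TPM against 36.7 and 18.0 TPM (3 lower of 4 tested). The 3 endothelial markers summed to 2.28 TPM or less in each library. Beside these counts, 51.3% of all tested genes were lower and 4.95% higher, so a marker being lower was common. The Y-linked gene Eif2s3y had 121 and 122 TPM in controls and 0 TPM with the fusion, and Ddx3y, Uty and Kdm5d were likewise lower there, at 0.273 TPM or less. Sex and genotype therefore cannot be told apart in any result below. The part of these other differences in the results was not tested.

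All 17 members of the 19S regulatory particle were lower with the fusion, while the 20S core was divided. Tests covered genes that reached 1 TPM in 2 or more libraries and compared log2(TPM + 1) with limma, which left 43 members. Psma8 and Psmb11, of testis and thymus proteasomes, had 0.671 TPM at most and were not tested. Of the 43, 28 fell, none rose and 15 did not pass at an adjusted p under 0.05 (Benjamini-Hochberg over 12871 genes). Among all tested genes 51.3% fell and 4.95% rose, so a fall alone was common. In the regulatory particle 17 of 17 fell, with a median log2 change of -4.15. Of the 15 tested core members, 5 fell and 10 did not pass, with a median of -1.20. The median over all tested genes was -1.41. In bulk libraries such as these, fewer cells that express a gene and less of its RNA in each cell cannot be told apart.

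These calls rested on having 2 control libraries. Without control replicate 1, and again without control replicate 2, 1 of 43 members passed, Psmc1 (adjusted p = 0.0451 and 0.0488, limma), where the spread of the remaining control was taken from the fusion libraries. Without fusion replicate 1 the median log2 change was -0.74 in the core and -4.05 in the regulatory particle. Without fusion replicate 2 these medians were -1.79 and -3.94. With a fusion library left out, the spread was taken from the controls, which were more alike (correlation 0.973) than the fusion libraries (0.894). Over all tested genes, too, far fewer passed when a control library was left out, so the loss of calls was not particular to the members.

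**Figure D1:**
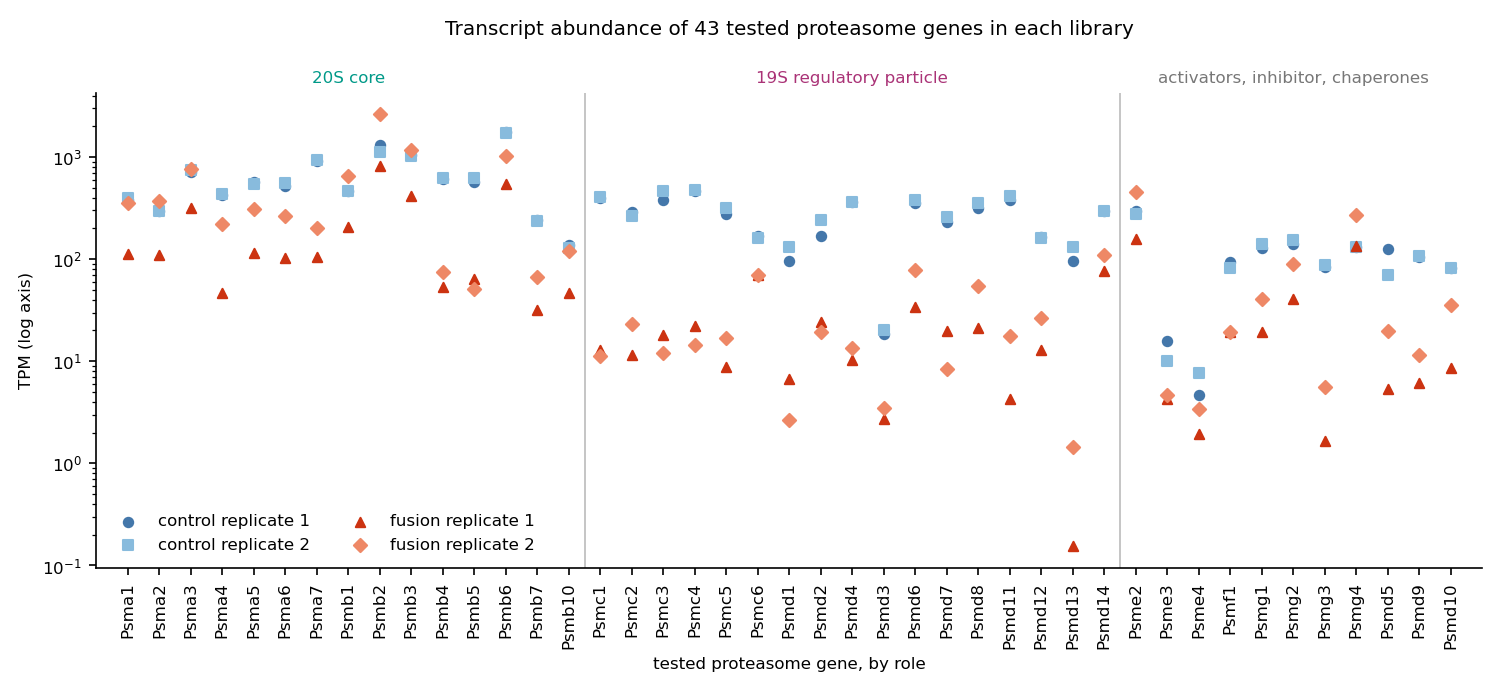
TPM on a log axis of the 43 tested proteasome genes in each of the 4 libraries, ordered by role, with a separate symbol for each library. In the 19S regulatory particle both fusion libraries lie below both control libraries for 17 of 17 genes, and in the 20S core for 10 of 15.

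The order of single libraries, taken from the same values, also differed between the particles. Both fusion libraries lay below both control libraries for 17 of 17 regulatory members and 10 of 15 core members. The core share was near that of all tested genes. Over all members this order was found in 36 of 43, beside 71.1% of all tested genes. Both fusion libraries lay above both controls for 1 member, beside 10.2%. The 6 members whose groups overlapped were Psma2, Psma3, Psmb1, Psmb2, Psmb3 and Psme2, of which 5 are core subunits. A log2 change under -4 was found in 9 members of the regulatory particle and in none of the core, beside 748 (5.81%) of all tested genes. Low genes cannot reach such a change on this scale. Among tested genes within the coding lengths and control TPM of each particle, 20.0% had a change under -4 in the range of the regulatory particle and 17.6% in the range of the core.

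The division was also seen in the ratio of the particles within each library, where scaling between libraries has no part. Core TPM summed to 9924 and 9846 in controls against 3088 and 8263. Regulatory particle TPM summed to 4470 and 4849 in controls against 356 and 486. The core was therefore 2.22 and 2.03 times the regulatory particle in controls and 8.68 and 17.0 times with the fusion. Both fusion libraries lay above both controls, at 12.8 ± 5.89 against 2.13 ± 0.134 (SD, n = 2). An exact 2-sided permutation test of 2 libraries against 2 cannot go below 0.333, so these ratios were not tested. Together, the 45 genes took 1.56% and 1.58% of TPM in controls against 0.384% and 0.970%.

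The spread of levels among subunits of the same particle was larger in each fusion library than in each control. The SD of log2 TPM among the 15 tested core genes was 0.948 and 0.943 in controls against 1.41 and 1.64. Among the 17 genes of the regulatory particle it was 1.14 and 1.10 against 2.04 and 1.71. The value of 2.04 includes Psmd13, at 0.155 TPM in that library, and such a low value widens an SD of logs. Over all tested genes, too, the fusion libraries were less alike (correlation 0.894) than the controls (0.973). No like SD over all genes is given, so a spread particular to the proteasome is not shown.

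In the core, 2 of the 3 constitutive catalytic genes fell. Psmb5 (ENSMUSG00000022193.7), which carries the chymotrypsin-like site, had 567 and 618 TPM in controls against 63.3 and 51.0 TPM. Its fall was the largest of the core, 10.4-fold between group means (log2 change -3.36 ± 0.33, SE, adjusted p = 0.00371, limma). Psmb7, with the trypsin-like site, had 242 and 239 TPM in controls against 31.9 and 66.7 TPM (log2 change -2.35, adjusted p = 0.0101, limma). Psmb6, with the caspase-like site, had 1749 and 1707 TPM in controls against 544 and 1033 TPM, and its change did not pass (log2 change -1.20, adjusted p = 0.0652, limma). Both fusion libraries were below both controls for each of these genes. Of their summed TPM, Psmb5 held 22.2% and 24.1% in controls against 9.91% and 4.43%, and Psmb6 held 68.4% and 66.6% against 85.1% and 89.8%.

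Among the 4 genes for beta subunits without a proteolytic site, 1 fell. Psmb4 had 612 and 623 TPM in controls against 52.8 and 74.1 TPM (log2 change -3.28, adjusted p = 0.00375, limma), so that each fusion library was far below each control. Psmb2 (ENSMUSG00000028837.8) had 1304 and 1131 TPM in controls against 826 and 2612 TPM. Its fusion libraries thus lay on either side of the controls (log2 change 0.27 ± 0.62, SE, adjusted p = 0.725, limma). The same order held for Psmb1, with 462 and 461 TPM in controls against 207 and 654 TPM (log2 change -0.33, adjusted p = 0.666, limma), and for Psmb3, with 1039 and 1017 TPM in controls against 413 and 1161 TPM (log2 change -0.57, adjusted p = 0.424, limma).

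In the alpha ring 2 of 7 genes fell. Psma7 had 917 and 938 TPM in controls against 104 and 201 TPM (log2 change -2.67, adjusted p = 0.00658, limma). Psma6 had 516 and 560.1 TPM in controls against 104 and 267 TPM (log2 change -1.69, adjusted p = 0.0416, limma). Both were below the controls in each fusion library, as were Psma1, Psma4 and Psma5, which did not pass (log2 changes of -0.95, -2.06 and -1.55). Psma2 (298 and 297 TPM in controls against 109 and 372 TPM) and Psma3 (707 and 749 TPM in controls against 314 and 762 TPM) overlapped. Psma3 matches the gene model Gm13835 over 665 bases at 100% identity. Gm13835 was given 169 and 192 TPM in controls against 0 and 116 TPM, so how reads were divided between them is uncertain.

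The core genes also differed between the fusion libraries. Fusion replicate 2 was 2.59 times fusion replicate 1 in the median over core members, 1.33 times over the regulatory particle and 1.37 times over all tested genes. Mitochondrial genes took the larger share in fusion replicate 1, as given above, and their part in this difference was not tested.

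All 6 ATPase genes fell, 5 of them to a like extent. The ATPases form the ring that unfolds substrates and threads them into the core. Psmc1 (ENSMUSG00000021178.9) had 399 and 403 TPM in controls against 12.9 and 11.2 TPM, a 33.3-fold difference of means (log2 change -4.95 ± 0.32, SE, adjusted p = 0.00367, limma). Psmc3 had 377 and 461 TPM in controls against 18.2 and 12.1 TPM (log2 change -4.72, adjusted p = 0.00367, limma), and Psmc4 had 466 and 476 TPM in controls against 22.2 and 14.3 TPM (log2 change -4.65, adjusted p = 0.00367, limma). Each fusion library was far below each control for these 3 genes. Psmc5 had 278 and 315 TPM in controls against 8.88 and 16.9 TPM, a 23.0-fold difference of means, and Psmc2 had 290.2 and 265 TPM in controls against 11.5 and 23.3 TPM, a 15.9-fold difference.

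Psmc6 (ENSMUSG00000021832.8, chromosome 14) fell least of the regulatory particle. It had 170.2 and 163 TPM in controls against 69.2 and 70.7 TPM (log2 change -1.24 ± 0.32, SE, adjusted p = 0.0229, limma). In controls it was the lowest of the 6 ATPase genes, with 8.59% and 7.81% of their summed TPM. In the fusion libraries it was the highest, with 48.5% and 47.6%. Its annotated transcript had the lowest GC content of all tested members, 37.0%. The call was lost without mitochondrially encoded genes (log2 change -0.67, adjusted p = 0.105, limma) and after a correction for GC content and transcript length (log2 change -0.59, adjusted p = 0.146, limma), where Psmd3 changed least. The sign turned with median ratio scaling (log2 change 0.52, adjusted p = 0.261, limma). Both the correction and this scaling take out most of the general shift between libraries.

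**Figure D2:**
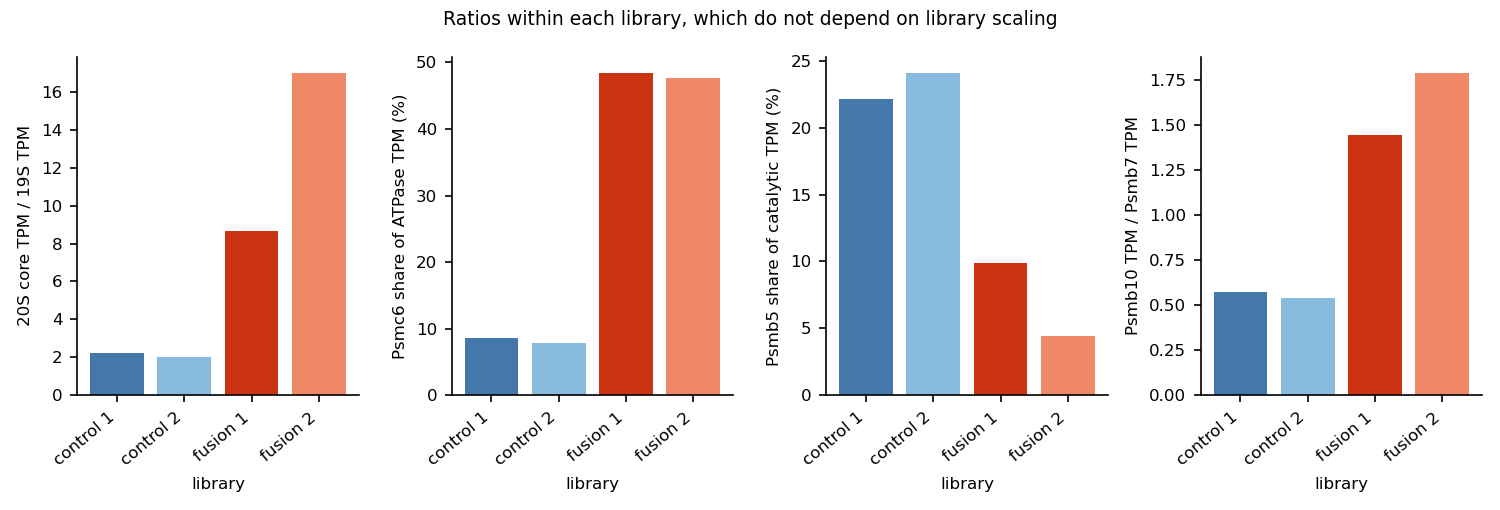
Panels give, for each of the 4 libraries, the TPM of the 20S core over that of the 19S regulatory particle, the share of Psmc6 in the TPM of the 6 ATPase genes, the share of Psmb5 in the TPM of the 3 constitutive catalytic genes, and Psmb10 over Psmb7. The Psmc6 share is 8.59% and 7.81% in controls against 48.5% and 47.6%.

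The 3 base genes without ATPase activity fell as well. Psmd4, for a ubiquitin receptor, had 364 and 366 TPM in controls against 10.2 and 13.6 TPM (log2 change -4.84, adjusted p = 0.00367, limma). Psmd1 and Psmd2 encode the large scaffold subunits of the base. Psmd1 had 94.9 and 132 TPM in controls against 6.68 and 2.67 TPM (log2 change -4.41, adjusted p = 0.00384, limma), and Psmd2 had 170.1 and 244 TPM in controls against 24.3 and 19.3 TPM (log2 change -3.18, adjusted p = 0.00384, limma). Both fusion libraries were below both controls in each case.

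The 8 lid genes fell over a wide range. Psmd13 (ENSMUSG00000025487.15, chromosome 7) changed most of all members, with 96.8 and 133 TPM in controls against 0.155 and 1.46 TPM (log2 change -6.08 ± 0.52, SE, adjusted p = 0.00367, limma). It shares 152 bases of an exon with Sirt3 on the opposite strand, and a Sirt3 transcript matches it over 329 bases at 100% identity. Sirt3 had 43.4 and 49.0 TPM in controls against 6.33 and 4.75 TPM, and without strand the reads of the shared bases cannot be told apart. Psmd11 had 381 and 418 TPM in controls against 4.25 and 17.8 TPM (log2 change -5.33, adjusted p = 0.00403, limma). Its near copies Gm14048 and A730017L22Rik, at 9.06 TPM or less, may share reads with it. The scale of the falls was smaller for Psmd7, Psmd8, Psmd12 and Psmd6, with log2 changes of -4.15, -3.27, -3.07 and -2.80.

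Psmd14 and Psmd3 fell least among lid genes. Psmd14, for the enzyme that cuts the ubiquitin chain from the substrate, had 294 and 296 TPM in controls against 77.0 and 111 TPM (log2 change -1.67 ± 0.35, SE, adjusted p = 0.0134, limma). Of the 8 lid members it was the highest in both fusion libraries, and it was below Psmd6, Psmd8 and Psmd11 in both controls. Psmd3 was the lowest of the regulatory particle in controls, with 18.7 and 20.4 TPM in controls against 2.70 and 3.46 TPM (log2 change -2.34, adjusted p = 0.00798, limma). It did not pass after median ratio scaling (log2 change -0.80, adjusted p = 0.176, limma) or after the GC and length correction (log2 change -0.13, adjusted p = 0.819, limma).

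The inducible catalytic gene and the activator genes did not pass. Psmb10 encodes the subunit that takes the place of Psmb7 in the immunoproteasome, the form made under interferon. It had 138 and 128 TPM in controls against 46.1 and 119 TPM (log2 change -0.83, adjusted p = 0.224, limma). Psmb10 was 0.570 and 0.538 times Psmb7 in controls and 1.44 and 1.79 times with the fusion, above both controls in each. Psmb10 itself lay below both controls in each fusion library, so the ratio rose through the larger fall of Psmb7, 4.87-fold between means. Psme2, for the beta subunit of the activator PA28, had 298 and 279 TPM in controls against 156 and 449.5 TPM, so that its groups overlapped (log2 change -0.12, adjusted p = 0.867, limma). Its near copy Psme2b, identical at 99.4% of 794 bases, had 1.31 and 0.895 TPM in controls against 3.25 and 11.5 TPM, and reads may be shared. Psme2 was 0.818 and 0.763 times the base gene Psmd4 in controls and 15.3 and 33.0 times with the fusion. This ratio largely restates the fall of Psmd4, 30.6-fold between means, and base genes that fell less would give a smaller shift. Psme3 and Psme4, for the activators PA28 gamma and PA200, were at 15.7 TPM or less (log2 changes of -1.32 and -0.96). Psmf1, for the proteasome inhibitor PI31, had 94.6 and 81.2 TPM in controls against 19.4 and 19.3 TPM and fell (log2 change -2.12, adjusted p = 0.00643, limma).

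Genes for assembly chaperones parted within a known pair. PSMG3 and PSMG4 act as a dimer in building the alpha ring. Psmg3 (ENSMUSG00000029551.13, chromosome 5) had 84.3 and 88.1 TPM in controls against 1.66 and 5.55 TPM and fell (log2 change -4.38 ± 0.54, SE, adjusted p = 0.00402, limma). Psmg4 (ENSMUSG00000071451.10, chromosome 13) had 132 and 132 TPM in controls against 135 and 269 TPM, the tested member above the controls in both fusion libraries, without passing (log2 change 0.52 ± 0.44, SE, adjusted p = 0.346, limma). The coding sequences of this pair are 366 and 369 bases long. Psmg1 and Psmg2 encode another dimer of core chaperones. Psmg1 had 129 and 142 TPM in controls against 19.2 and 40.6 TPM and fell (log2 change -2.24, adjusted p = 0.0122, limma), and Psmg2 had 141 and 154 TPM in controls against 40.8 and 89.2 TPM and did not pass (log2 change -1.28, adjusted p = 0.0652, limma). The 3 chaperones of the base, Psmd9, Psmd5 and Psmd10, fell, with log2 changes of -3.50, -3.05 and -2.15. After median ratio scaling, and again after the GC and length correction, 1 of these 3 was lower, Psmd9.

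Most genes of the table were lower with the fusion, so the members were also compared after each library was divided by its median ratio over 10965 genes. Of 17 genes of the regulatory particle, 13 were then lower, none higher and 4 did not pass, with a median log2 change of -2.43. Of 15 core genes, 2 were lower, 2 higher and 11 did not pass, and the median turned to 0.57. Psmb4 (log2 change -1.52, adjusted p = 0.0146, limma) and Psmb5 (log2 change -1.60, adjusted p = 0.0328, limma) were the lower core genes, and Psmb2 (log2 change 2.04, adjusted p = 0.0284, limma) and Psma3 (log2 change 1.20, adjusted p = 0.0471, limma) the higher ones. Psmg4 (log2 change 2.28, adjusted p = 0.0112, limma) and Psme2 (log2 change 1.64, adjusted p = 0.0347, limma) were higher as well, and Psmg3 (log2 change -2.83, adjusted p = 0.0146, limma) and Psmd9 (log2 change -1.82, adjusted p = 0.0160, limma) lower. The members that fell as deposited and did not pass here were Psma6, Psma7, Psmb7, Psmc6, Psmd3, Psmd6, Psmd14, Psmd5, Psmd10, Psmf1 and Psmg1. Among all tested genes 18.6% were lower and 14.3% higher after this scaling, and the median over them was -0.15. The core median exceeded the regulatory median by 2.95 as deposited, and a factor per library leaves this difference as it is apart from the pseudocount.

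**Figure D3:**
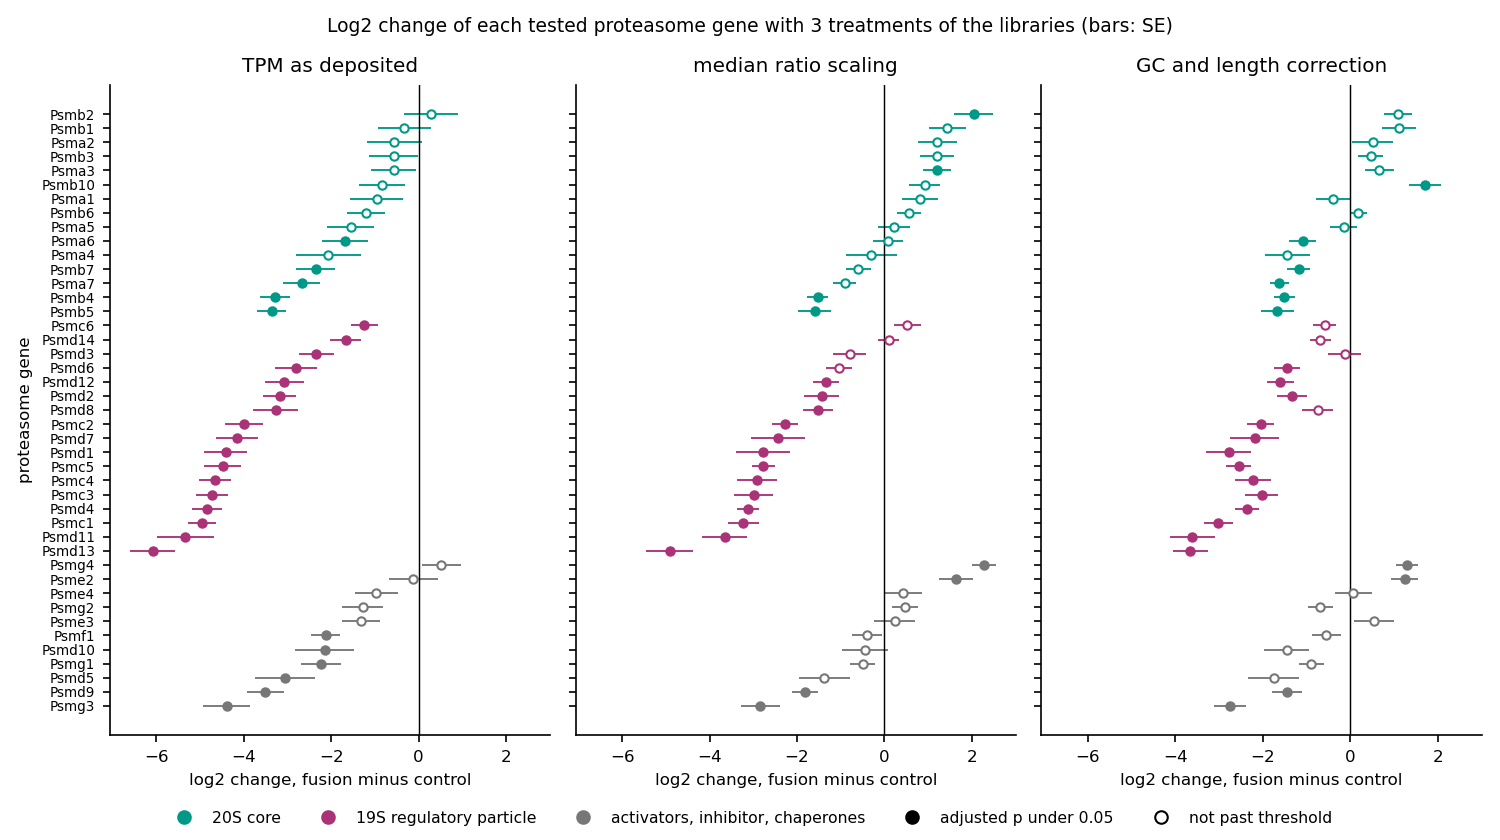
Log2 change of each tested proteasome gene with its SE, for TPM as deposited, after median ratio scaling and after a correction for GC content and transcript length; filled points have an adjusted p under 0.05 (limma). The medians of the regulatory particle are -4.15, -2.43 and -2.05 and those of the core -1.20, 0.57 and -0.15.

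Core and regulatory genes also differ in coding length, while their transcript lengths overlap, at 766 to 2911 and 1316 to 3112 bases. Coding sequences of tested core members span 603 to 831 bases, and those of the regulatory particle 930 to 2859 bases, so the particles share no range of coding length. Across the 43 members the log2 change and the coding length had a Spearman rho of -0.55. It was -0.67 within the core (n = 15) and -0.00245 within the regulatory particle (n = 17). The points share libraries, and rho is given as a description. Over 11309 tested coding genes rho was 0.029. With transcript length in place of coding length, rho was -0.25 over the 43 members, 0.26 within the core and 0.081 within the regulatory particle. Over the tested coding genes it was 0.11. The median change was -1.79 over the 1265 tested genes within the coding lengths of the core and -1.63 over the 6226 within those of the regulatory particle. With control TPM also within the range of each particle, these medians were -2.27 over 256 genes and -2.76 over 2053 genes. The members themselves had medians of -1.20 and -4.15.

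GC content was alike in the particles, with medians of 49.2% in the core and 49.7% in the regulatory particle. The log2 change and GC content had a Spearman rho of -0.38 within the core and -0.40 within the regulatory particle, beside -0.18 over all tested coding genes. After a correction for GC content and transcript length, 13 of 17 genes of the regulatory particle were lower and none higher. In the core 5 of 15 were lower and 1 was higher, Psmb10 (log2 change 1.71, adjusted p = 0.0204, limma). Psmg4 and Psme2 were also higher (log2 change 1.29, adjusted p = 0.0146, limma and log2 change 1.24, adjusted p = 0.0314, limma). The members that fell as deposited and did not pass with the correction were Psmc6, Psmd3, Psmd8, Psmd14, Psmd5, Psmd10, Psmf1 and Psmg1. Among all tested genes 14.4% were lower and 14.3% higher. The correction also took out the general shift of each library, and the median over all tested genes went from -1.41 to -0.020. The parts of this shift and of GC content and length in the lost calls were not separated. The core median then exceeded the regulatory median by 1.90. No value of RNA integrity was used here, and its part in the division was not tested.

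**Figure D4:**
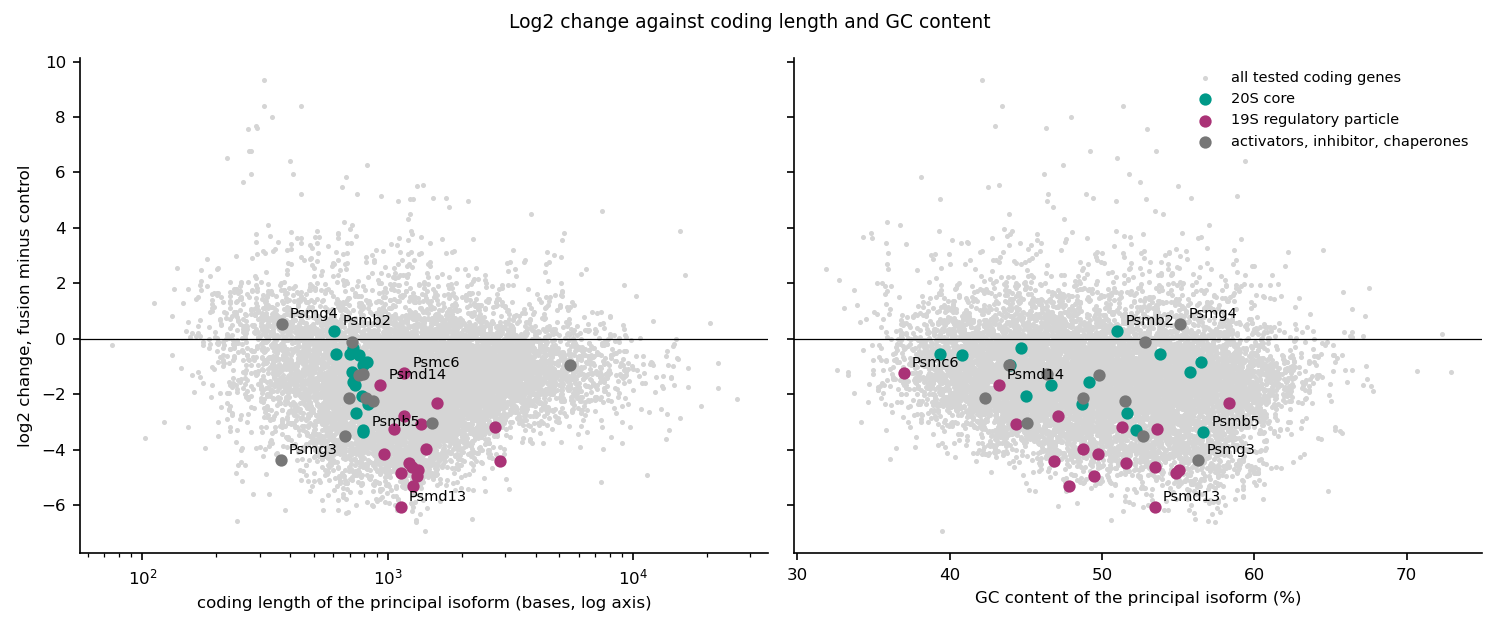
Log2 change of all tested coding genes (grey) and of the tested proteasome genes (coloured by particle) against coding length on a log axis and against GC content. Core genes stand at 603 to 831 bases and genes of the regulatory particle at 930 to 2859 bases, and Psmc6 has the lowest GC content of the members, 37.0%.

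Of 11 tested parts and partners of the proteasome with other symbols, 5 fell, none rose and 6 did not pass, beside the 51.3% of all tested genes that fell. After median ratio scaling 4 were lower and 3 higher, beside 18.6% and 14.3% of all tested genes. The higher ones were Sem1 (log2 change 2.24, adjusted p = 0.0110, limma), Uchl5 (log2 change 2.23, adjusted p = 0.0243, limma) and Akirin2 (log2 change 2.43, adjusted p = 0.0132, limma). After the GC and length correction 4 were lower and 1 higher, Akirin2, beside 14.4% and 14.3% of all tested genes. Sem1 (log2 change 0.64, adjusted p = 0.128, limma) and Uchl5 (log2 change 1.23, adjusted p = 0.0600, limma) did not pass there. Adrm1, for a ubiquitin receptor of the base, had 138 and 160.5 TPM in controls against 7.55 and 5.00 TPM (log2 change -4.39, adjusted p = 0.00367, limma). Sem1, for the smallest lid subunit, had 239 and 223 TPM in controls against 250.3 and 414 TPM, and its fusion libraries lay above the controls without passing (log2 change 0.48, adjusted p = 0.330, limma). Of the deubiquitinases that bind the particle, Usp14 had 123 and 119.9 TPM in controls against 4.42 and 12.7 TPM and fell (log2 change -3.83, adjusted p = 0.00493, limma). Uchl5 had 84.5 and 91.3 TPM in controls against 150.2 and 99.7 TPM and did not pass (log2 change 0.47, adjusted p = 0.308, limma). Pomp, for the chaperone that matures the core, was lower in both fusion libraries, at 421 and 389 TPM in controls against 128 and 296 TPM, without passing (log2 change -1.05, adjusted p = 0.120, limma). Fbxo7, for a binding partner of PI31, fell 25.5-fold between means (log2 change -4.79, adjusted p = 0.00535, limma), and the ubiquitin ligase gene Ubr4 fell from 7.44 and 13.8 to 0.303 and 0.853 TPM (log2 change -2.85, adjusted p = 0.00766, limma).

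Of 5 tested genes for the control of proteasome transcription, 2 fell and 3 did not pass, beside the 51.3% of all tested genes that fell. Nfe2l1, for the factor whose recognition letters were searched above, had 3.94 and 4.40 TPM in controls against 0.396 and 0.560 TPM and fell (log2 change -1.81, adjusted p = 0.00859, limma). Ngly1 encodes the enzyme that strips sugars from NFE2L1 and so activates it. It had 19.1 and 23.2 TPM in controls against 3.67 and 7.28 TPM and fell (log2 change -1.82, adjusted p = 0.0232, limma). Nfe2l2 had 3.62 and 2.49 TPM in controls against 8.19 and 2.62 TPM, and its groups overlapped. After median ratio scaling neither Nfe2l1 nor Ngly1 passed (log2 change -0.80, adjusted p = 0.115, limma and log2 change -0.23, adjusted p = 0.671, limma). After the GC and length correction 0 of the 5 were lower and 1 was higher, beside 14.4% and 14.3% of all tested genes. The higher one was Nfe2l2 (log2 change 2.26, adjusted p = 0.0487, limma). Of the 5 members with a match of letters in the promoter, Psmb6 did not pass and Psmb5, Psmc6, Psmd9 and Psmd12 fell. Among all 43 tested members 28 fell, and among all tested genes 51.3%. A link between the letters and these changes was not tested.

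Of 11 reported genes for ubiquitin, its activating enzymes and its shuttles, 6 fell, none rose and 5 did not pass, a share near that of all tested genes (51.3%). After median ratio scaling 2 were lower and 2 higher, beside 18.6% and 14.3% of all tested genes. After the GC and length correction 1 was lower and 2 higher, beside 14.4% and 14.3%. Ubb encodes a chain of ubiquitin units, and Rps27a encodes ubiquitin joined to a ribosomal protein. Ubb had 10121 and 8516 TPM in controls against 585 and 1242 TPM and fell (log2 change -3.44, adjusted p = 0.00538, limma). Rps27a had 712 and 789 TPM in controls against 828 and 1223 TPM, above the controls in both fusion libraries without passing (log2 change 0.42, adjusted p = 0.370, limma). After median ratio scaling Ubb was still lower (log2 change -1.67, adjusted p = 0.0249, limma) and Rps27a was higher (log2 change 2.19, adjusted p = 0.0109, limma). After the GC and length correction Ubb no longer passed (log2 change -0.88, adjusted p = 0.0591, limma). Vcp encodes the ATPase that extracts ubiquitin-tagged proteins, and Ufd1 a cofactor of it. Vcp had 103 and 217 TPM in controls against 7.77 and 9.03 TPM and fell (adjusted p = 0.00386, limma), and Ufd1 had 176 and 174 TPM in controls against 8.61 and 31.3 TPM and fell (log2 change -3.32, adjusted p = 0.00983, limma). Uba1, for the main ubiquitin-activating enzyme, had 77.5 and 98.2 TPM in controls against 8.97 and 27.7 TPM and fell (log2 change -2.38, adjusted p = 0.0206, limma). Neither Ufd1 nor Uba1 passed after scaling (log2 change -1.61, adjusted p = 0.0596, limma and log2 change -0.68, adjusted p = 0.278, limma) or after the correction. Ubqln2, for a shuttle factor, was higher in both of these settings (log2 change 2.21, adjusted p = 0.0168, limma after scaling). The groups of the shuttle factor gene Rad23b overlapped, at 4.40 and 5.64 TPM in controls against 5.76 and 3.24 TPM.

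The protocol speaks of forebrains of single mice, but no label ties the libraries of a genotype to different mice. The p-values given here therefore measure the spread between these libraries only, which may be technical.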

How the data were processed

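RNA was profiled in 4 libraries of sorted tdTomato-positive forebrain cells. The authors deposited 1 table of TPM per gene. Trimmomatic 0.39, Salmon 1.8.0, GRCm38 and mm10 appear in the submitters' processing notes. Which annotation release they used was not given in the sources used here. Because TPM keeps no depth, no counting interval is given. Groups and replicates came from the sample titles.

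Values were compared as log2(TPM + 1), for genes reaching 1 TPM in 2 or more libraries, with limma 3.58.1 in R 4.3.3 (mean-variance trend, 2-sided, Benjamini-Hochberg over 12871 genes, threshold 0.05). Fold changes on this scale understate the change of low genes. The fit was also run on simulated data with independent noise of the same variance in both groups. These libraries need not have such noise, and no conclusion is drawn from that run. Alternatives were other pseudocounts, filters, scalings and limma settings, a loess correction for GC content and transcript length (span 0.3), a replicate block, and leaving out each library. The loess correction also takes out the general shift of each library. Lengths and GC content came from the principal isoform of each gene in GENCODE M21, matched by identifier without version for 54094 of 54348 rows, and the isoform in the cells may differ. Near copies were found with blastn (at least 90% identity over 200 bases).

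The members and lists were chosen with earlier results of these data known. Every member is reported. More statistics were given for the 6 largest falls and the 6 largest rises or smallest falls, the catalytic genes, Psme2 and up to 4 members of each role with the highest mean, and, of each partner list, for up to 4 genes past the threshold with the largest change. Sem1, Uchl5, Pomp, Rps27a, Rad23b, Nfe2l2, Akirin2 and Ubqln2 were named after their values were seen. The ratio of Psme2 to Psmd4 and the shares of Psmc6, Psmb5 and Psmb6 were not among the ratios planned. Paaf1 was not analysed here, and some genes of the ubiquitin list are not reported here and are left out of its counts.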

Additional observations from a re-analysis of the deposited data

How the results depend on the processing

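The difference between the core and regulatory medians, 2.95, was added as a result after the data were seen. It kept its direction in all settings run, but several of them could not move it. Median ratio scaling and leaving out mitochondrially encoded genes each apply a factor per library, which cannot move it apart from the pseudocount. The other limma settings and the replicate block leave the log2 changes as they are. The filter of a mean of at least 5 TPM left both medians as they were. In these settings the difference stayed at 2.95 to 3.00 by construction, so they lend it no weight. The difference moved most with quantile normalization (1.79) and the GC and length correction (1.90), and leaving out a library gave 2.15 to 3.31. The core median went to -0.63 without mitochondrially encoded genes and -0.15 with the correction, turned to 0.57 with median ratio scaling, and ran from -1.79 to -0.74 without a library. The regulatory median was -4.25 and -3.71 with pseudocounts of 0.1 and 5, -2.43 with median ratio scaling, -2.55 with quantile normalization, -3.62 without mitochondrially encoded genes, -2.05 with the correction, and -4.24 to -3.94 without a library. By geometric means the core was 2.41 times the regulatory particle in the control libraries and 15.0 times in the fusion libraries.

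Members lower numbered 17 with median ratio scaling and 1 to 41 without a library, and members higher numbered 4 with median ratio scaling, 2 with quantile normalization, 1 without mitochondrially encoded genes, 3 with the correction and 0 to 4 without a library. Over all genes, 2392, 1955 and 1847 were lower with median ratio scaling, quantile normalization and the correction, and 1025 to 7987 without a library. Genes higher numbered 353 without a filter, 405 with a mean of at least 5 TPM, 1843 with median ratio scaling, 1948 with quantile normalization, 978 without mitochondrially encoded genes, 1842 with the correction and 14 to 1084 without a library. The cause of these shifts was not tested.

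Log2 changes of single genes whose sign differed from that as deposited were as follows. With median ratio scaling: Ecpas 0.63, Mafg 0.25, Nfe2l3 0.43, Pomp 0.71, Psma1 0.81, Psma2 1.21, Psma3 1.20, Psma5 0.21, Psma6 0.079, Psmb1 1.44, Psmb10 0.92, Psmb3 1.20, Psmb6 0.57, Psmc6 0.52, Psmd14 0.096, Psme2 1.64, Psme3 0.24, Psme4 0.43, Psmg2 0.48, Rad23b 1.30, Txnl1 0.37 and Uba6 0.69. With quantile normalization: Ecpas 0.63, Mafg 0.60, Nfe2l3 0.73, Psma1 0.037, Psma2 0.56, Psmb1 0.37, Psmb10 0.73, Psmc6 0.33, Psme2 0.96, Psme3 0.25, Psme4 0.47, Psmg2 0.32, Rad23b 1.34, Txnl1 0.35 and Uba6 0.73. With the GC and length correction: Ecpas 0.16, Mafg 0.52, Nfe2l3 1.35, Nploc4 0.0605, Pomp 0.79, Psma2 0.51, Psma3 0.66, Psmb1 1.11, Psmb10 1.71, Psmb3 0.47, Psmb6 0.18, Psme2 1.24, Psme3 0.55, Psme4 0.065, Rad23b 1.33, Uba6 0.21 and Ubqln4 0.051. Without mitochondrially encoded genes: Psma2 0.0092, Psmb1 0.24, Psme2 0.45 and Rad23b 0.33. Leaving out a library gave a range across 0 for Nfe2l2 -0.15 to 1.19, Psma2 -1.43 to 0.32, Psma3 -1.21 to 0.067, Psmb1 -1.15 to 0.50, Psmb2 -0.56 to 1.10, Psmb3 -1.31 to 0.18, Psme2 -0.88 to 0.64 and Rad23b -0.50 to 0.18.

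With the replicate block 29 members were lower and none higher. The libraries share only a number: replicate differences in the groups had a correlation of -0.04 over genes.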
